A study of Mus musculus with 24 samples.

Results

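The 8 genes described here serve the export of cholesterol from cells, encode receptors that control it, or are tied to those receptors. They are the liver X receptor (LXR) genes Nr1h3 and Nr1h2, the efflux pumps Abca1 and Abcg1, the lipid carrier Apoe, the LXR targets Mylip and Lpcat3, and Cyp27a1, whose enzyme makes an LXR ligand. They were taken by symbol from a table of 16996 genes, and all 8 were in it. RNA had been sequenced from cells that CD45 beads enriched from tumors of female wild-type Balb/c mice, labelled as 10 to 12 weeks old. The tumors grew in the mammary fat pad from EMT6-hHER2, a line derived from the murine breast cancer line EMT6 by stable insertion of human HER2 and single-cell sorting. When tumors had reached 80 mm3, mice stayed untreated or received 1 intravenous dose of T-PNU at 1 mg/kg, of trastuzumab at 20 mg/kg or of T-DM1 at 15 mg/kg, and tumors were taken 10 days later. Trastuzumab is an antibody to human HER2, and T-DM1 and T-PNU are antibody-drug conjugates that link trastuzumab to a microtubule poison and to an anthracycline. By the study's methods the T-PNU tumors were smaller at harvest than at treatment. In its growth experiments, tumors grew on with trastuzumab and with T-DM1. Tumor size at harvest is not given per mouse, and a difference in it cannot be told apart from treatment. The study also marks some T-PNU samples as low-responding, and these were not separated here. Each group had 6 mice and 1 library per mouse, 24 in all.

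Cells that hold excess cholesterol oxidize part of it to oxysterols, which bind the LXRs. An LXR pairs with a retinoid X receptor on DNA and, once a ligand is bound, switches on genes for efflux pumps, lipid-carrying apolipoproteins and phospholipid remodelling. Macrophages, which take up dying cells, are a cell type in which this program is well known. The opposite arm, run by the SREBP factors, switches on cholesterol synthesis and lipoprotein uptake when cell sterols are low.

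Values were normalized expression on a log2 scale, with sample medians over all genes between 8.73 and 8.87. Counts are not part of the table, so the depth per sample is unknown. Ptprc, which encodes CD45, lay between 14.01 and 15.52 in all 24 samples, and the collagen gene Col1a2 and the keratin gene Krt8 were also high, with means of 15.16 and 13.01. The study's heatmaps leave out 4 libraries, B1 and C1 of the untreated mice and E2 and B3 of the trastuzumab group, and calls and list counts are given also for the 20 other samples where they differ. These 4 enter the comparison of T-PNU with T-DM1 only through the estimate of the spread. C1 was the highest untreated sample for 6 of the 8 genes and B1 the lowest for 5. The names of the untreated columns hold numbers well below those of the treated columns. The numbers of the treated columns also run in a separate block for each group. What these numbers mark is not stated. Whatever it is cannot be told apart from treatment in any comparison, that of T-PNU with T-DM1 included. In bulk samples of this kind, fewer cells of a type and less RNA per cell cannot be told apart.

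Per kilobase of exon, Apoe had by far the highest mean level (14.33 on the log2 scale), followed by Abca1 (10.36) and Mylip (10.08). Nr1h2 (9.23), Lpcat3 (8.81), Abcg1 (8.70), Nr1h3 (8.10) and Cyp27a1 (7.58) came next. The level per length of the LXR beta gene Nr1h2 thus lay above that of the LXR alpha gene Nr1h3. Within a gene, a difference among the 4 groups was found by limma's F test at an adjusted p of 0.0143 for Abca1, 0.0225 for Abcg1, 0.0363 for Cyp27a1 and 0.0462 for Apoe. The other 4 genes did not pass it (adjusted p from 0.113 for Mylip to 0.341 for Lpcat3). Of all genes, 18.8% passed this test. Mylip passed as well with the 20 samples (adjusted p = 0.0212 by limma), and Nr1h3, Nr1h2 and Lpcat3 did not, beside 40.8% of all genes.

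**Figure D1:**
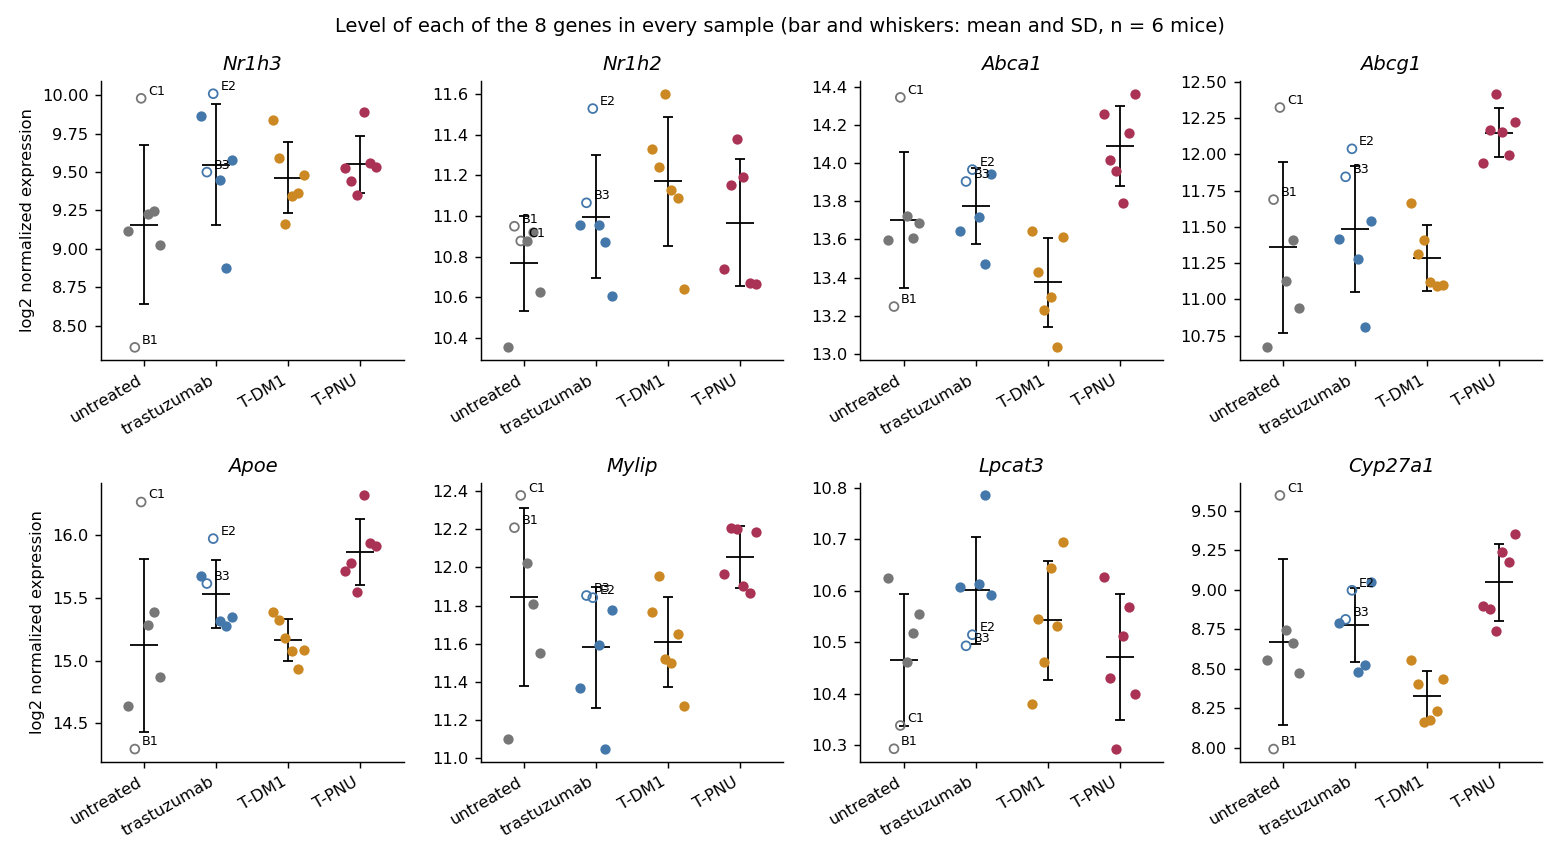
Log2 normalized expression (vertical axis) of each gene in every sample by group (horizontal axis), with points for mice, open where the study's heatmaps leave the sample out, and bars for the mean and SD of 6 mice. For Abca1, Abcg1, Apoe and Cyp27a1 the 6 T-PNU samples lie above the 6 T-DM1 samples, and untreated C1 lies among or above the T-PNU samples.

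Neither receptor gene was called between any groups by limma with 24 samples, at an adjusted p under 0.05. Nr1h3, the LXR most abundant in liver, fat and macrophages, ran from 8.36 to 9.98 in untreated mice (median 9.17), from 8.88 to 10.01 with trastuzumab (9.54), from 9.16 to 9.84 with T-DM1 (9.42) and from 9.35 to 9.89 with T-PNU (9.53). All 4 ranges overlapped, and the lowest and highest untreated values were those of B1 and C1. Its T-PNU mean exceeded the T-DM1 mean by 0.09 on the log2 scale (95% interval -0.32 to 0.49, adjusted p = 0.753 by limma). It exceeded the untreated mean by 0.39 (interval -0.01 to 0.80, adjusted p = 0.213 by limma). Without C1 that difference was 0.56 and passed (adjusted p = 0.0332 by limma). Nr1h2, the LXR made in most cell types, ran from 10.35 to 10.95 in untreated mice (median 10.88), from 10.61 to 11.53 with trastuzumab (10.96), from 10.64 to 11.60 with T-DM1 (11.18) and from 10.67 to 11.38 with T-PNU (10.95). T-DM1 had the highest mean, and 5 of its 6 samples were above every untreated sample. The Nr1h2 difference of T-DM1 from untreated mice was 0.40 (interval 0.07 to 0.74) with an adjusted p of 0.130 by limma. The adjusted p was 0.141 with the 20 samples and 0.0445 (difference 0.51) without T-DM1 sample H3, the lowest of its group. The gene stayed uncalled in 30 of 32 settings.

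Abca1, the pump that loads cholesterol onto lipid-poor apolipoprotein, ran from 13.25 to 14.34 in untreated mice (median 13.65), from 13.47 to 13.97 with trastuzumab (13.81), from 13.03 to 13.65 with T-DM1 (13.36) and from 13.79 to 14.36 with T-PNU (14.09). T-PNU samples were the highest and T-DM1 samples the lowest group, with no overlap between them. In order of group means, T-PNU (14.09) came before trastuzumab (13.77), untreated (13.70) and T-DM1 (13.37), and no neighbours in that order passed the test (adjusted p from 0.169 to 0.951).

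Abcg1, which passes cholesterol to mature HDL, ran from 10.67 to 12.32 in untreated mice (median 11.27), from 10.81 to 12.04 with trastuzumab (11.48), from 11.09 to 11.67 with T-DM1 (11.22) and from 11.94 to 12.42 with T-PNU (12.16). The T-PNU values were tight (SD 0.17) and above all T-DM1 samples, all trastuzumab samples but E2 and all untreated samples but C1. The untreated spread (SD 0.59) was the widest. The means of trastuzumab (11.49), untreated (11.36) and T-DM1 (11.28) followed T-PNU (12.15), and again no neighbours passed the test (adjusted p from 0.166 to 0.933).

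Promoter letters are shown for Abca1 and for the genes that share a pattern picked from its start region. Among them is Srebf1, which differed in the other direction. The windows are RefSeq promoter sequence on GRCm38.p6, 5′ to 3′ on the gene's strand (minus in each case), with the site in capitals. For Abca1 (chr4:53159907-53160002) the site spans positions -67 to -52 from the start site, for Srebf1 (chr11:60210598-60210693) -182 to -167, and for Fasn (chr11:120824717-120824797) -225 to -210.
Abca1: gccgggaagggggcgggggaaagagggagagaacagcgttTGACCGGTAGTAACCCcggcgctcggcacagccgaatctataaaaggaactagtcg
Srebf1: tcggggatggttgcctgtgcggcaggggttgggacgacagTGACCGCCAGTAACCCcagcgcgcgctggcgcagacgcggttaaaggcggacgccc
Fasn: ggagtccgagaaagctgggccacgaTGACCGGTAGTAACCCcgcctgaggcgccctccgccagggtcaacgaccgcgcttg

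The capitals are the reverse complement of GGGTTANNNNCGGTCA, 2 half-sites in direct repeat with 4 bases between, the arrangement LXR and its partner are known to bind. These letters were chosen after the Abca1 promoter had been read, so the match at Abca1 was set in advance and its rarity is no result about Abca1. Searched on both strands, they occur without mismatch in 3 of 27025 genes with a RefSeq promoter of 300 bases (0.0111%), namely Abca1, Srebf1 and Fasn. The consensus repeat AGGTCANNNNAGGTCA with at most 2 mismatches was in none of the 7 genes described here that have a promoter in the table (Abcg1 has no entry), and in 3.47% of all genes. A match describes letters in this window only.

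The genes sharing that site did not move together. Srebf1, which encodes the factor that turns on fatty acid synthesis, ran from 10.56 to 11.12 with T-DM1 (median 10.97) and from 10.07 to 10.64 with T-PNU (10.57). It was lower with T-PNU than with T-DM1 by limma (difference -0.43, SE 0.12, adjusted p = 0.0109), the direction opposite to Abca1. Fasn, the fatty acid synthase gene, differed by -0.43 as well (SE 0.19, adjusted p = 0.0877), which did not pass with 24 samples but did with 20 (adjusted p = 0.0347).

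Apoe, the lipoprotein component that macrophages secrete and that accepts effluxed lipid, ran from 14.29 to 16.26 in untreated mice (median 15.08), from 15.27 to 15.97 with trastuzumab (15.48), from 14.94 to 15.39 with T-DM1 (15.13) and from 15.55 to 16.32 with T-PNU (15.85). The T-PNU samples were above all T-DM1 samples, and untreated C1 was near the T-PNU maximum. Cyp27a1, the mitochondrial hydroxylase that makes 27-hydroxycholesterol, ran from 7.99 to 9.60 in untreated mice (median 8.61), from 8.48 to 9.05 with trastuzumab (8.80), from 8.16 to 8.56 with T-DM1 (8.32) and from 8.74 to 9.35 with T-PNU (9.03). Again T-PNU and T-DM1 did not overlap, while T-PNU overlapped with both other groups. By means, Apoe ran T-PNU (15.87), trastuzumab (15.53), T-DM1 (15.17), untreated (15.12) and Cyp27a1 ran T-PNU (9.05), trastuzumab (8.78), untreated (8.67), T-DM1 (8.33), with no neighbours past the test.

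Mylip, a ubiquitin ligase that marks lipoprotein receptors for degradation, ran from 11.10 to 12.38 in untreated mice (median 11.91), from 11.05 to 11.85 with trastuzumab (11.69), from 11.27 to 11.95 with T-DM1 (11.58) and from 11.87 to 12.21 with T-PNU (12.08). All 6 T-PNU samples were above all 6 trastuzumab samples, and 4 of 6 were above all T-DM1 samples. Lpcat3, which builds polyunsaturated phospholipids, kept within 10.29 to 10.79 over all 24 samples, with medians of 10.49 in untreated mice, 10.60 with trastuzumab, 10.54 with T-DM1 and 10.47 with T-PNU. Its groups overlapped throughout, and its largest difference between groups was 0.14, between trastuzumab and untreated mice (adjusted p = 0.640 by limma).

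Between the antibody-drug conjugates, T-PNU against T-DM1, 4 of the 8 genes were higher with T-PNU and 0 were lower at an adjusted p under 0.05, the threshold used for every call. Of all genes, 12.4% were higher and 29.8% differed in either direction. Abcg1 was 1.82-fold higher (log2 difference 0.87, SE 0.21, adjusted p = 0.00605 by limma), Cyp27a1 1.64-fold (0.72, SE 0.18, adjusted p = 0.00623), Abca1 1.64-fold (0.71, SE 0.14, adjusted p = 0.00223) and Apoe 1.63-fold (0.70, SE 0.22, adjusted p = 0.0216). For each of these 4 genes, every T-PNU sample exceeded every T-DM1 sample, as 13.2% of all genes did in one direction or the other. The two-sided exact permutation p was 0.00216 for each, the smallest that 6 against 6 mice can give, out of 48 such tests over the 8 genes and 6 comparisons.

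The other 4 genes did not pass in the comparison of T-PNU with T-DM1. Mylip differed by 0.45 (interval 0.09 to 0.80, adjusted p = 0.0550 by limma, exact permutation p = 0.00649), Nr1h2 by -0.20 (interval -0.54 to 0.13) and Lpcat3 by -0.07 (interval -0.22 to 0.08). The median difference of the 8 genes was 0.57, beside 0.03 for all genes. With the 20 samples of the heatmaps, Mylip was higher too (adjusted p = 0.0208), which gave 5 of 8, beside 19.8% of all genes. Without T-PNU sample D2 the Apoe difference was 0.61 with an adjusted p of 0.0504. At the study's own thresholds, an adjusted p under 0.01 with a fold above 2, none of the 8 genes was called against T-DM1, and 1.91% of all genes were.

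**Figure D2:**
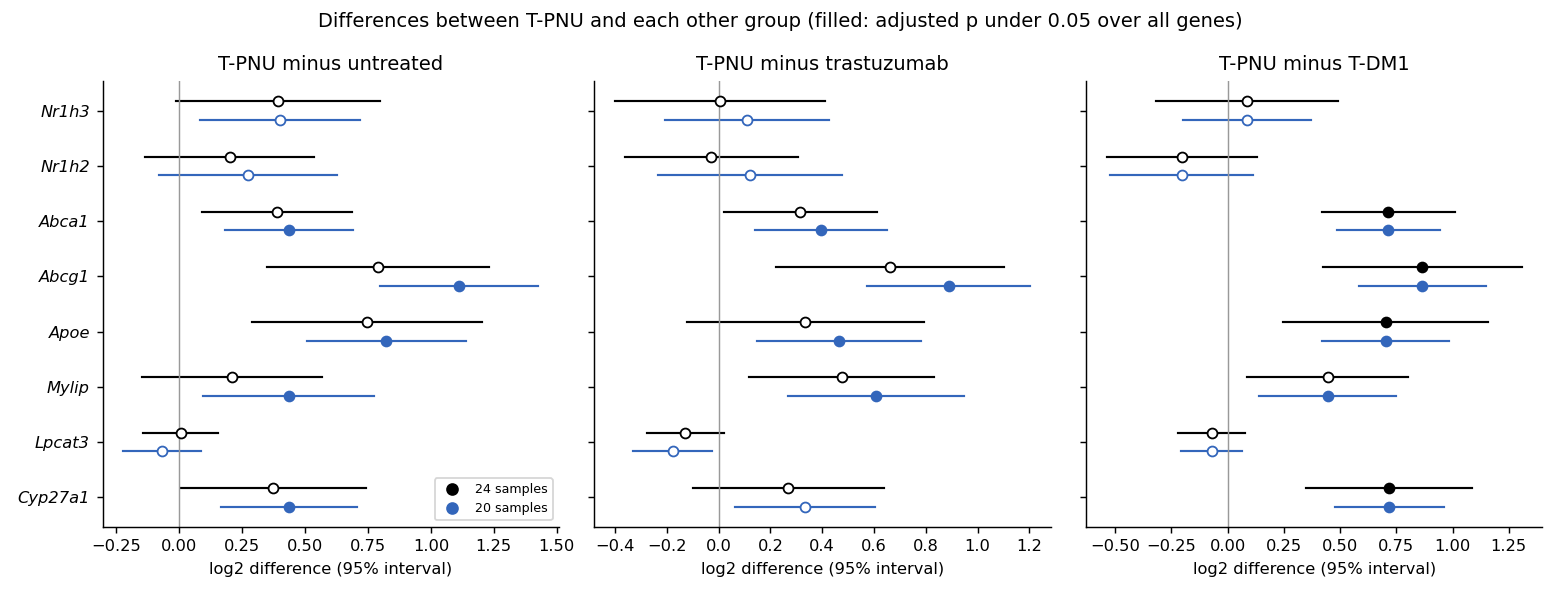
Log2 differences of T-PNU from each other group (horizontal axis) by gene, with 95% intervals from limma. Black is all 24 samples and blue the 20 samples of the heatmaps, filled where the adjusted p over all genes is under 0.05. Against T-DM1 the same 4 genes are filled in both fits and Mylip is filled with 20 samples, whereas against untreated and trastuzumab mice genes are filled with 20 samples only.

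Against untreated mice, no gene of the 8 was called with 24 samples by limma, where 0.188% of all genes were. All 8 differences were positive, beside 51.5% of all genes, but that of Lpcat3 was 0.0065 and turned to -0.068 with the 20 samples. The differences all rest on the same untreated samples. The largest were those of Abcg1 (0.79, SE 0.21, adjusted p = 0.0665), Apoe (0.75, SE 0.22, adjusted p = 0.0752), Nr1h3 (0.39, adjusted p = 0.213), Abca1 (0.39, adjusted p = 0.111) and Cyp27a1 (0.37, adjusted p = 0.195). At an unadjusted p under 0.05 there were 4 genes, and 24.8% of all genes. The median over the 8 was 0.38, beside 0.01 for all genes.

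The count of genes called against untreated mice rose when sample C1 was left out, and also in some settings that kept it. With the 20 samples, 5 of 8 were higher, beside 15.3% of all genes, led by Abcg1 (1.11, adjusted p = 0.000415) and Apoe (0.82, adjusted p = 0.00307), with Abca1, Mylip and Cyp27a1 at about 0.44 each. Without C1 alone, 5 were higher (Nr1h3, Abca1, Abcg1, Apoe and Cyp27a1), beside 7.55% of all genes. Without B1 and C1, 4 were higher (Abca1, Abcg1, Apoe and Cyp27a1), beside 11.7%. Abcg1 differed by 0.98 without C1 (adjusted p = 0.0039). With C1 kept, Abcg1 passed by limma without T-PNU sample G1 (0.82, adjusted p = 0.0419), and 5 genes passed with sample weights.

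Against trastuzumab, the antibody without a payload, no gene of the 8 was called by limma with 24 samples, and 0.00588% of all genes were. The differences were 0.66 for Abcg1 (SE 0.21, adjusted p = 0.166), 0.47 for Mylip (SE 0.17, adjusted p = 0.175), 0.33 for Apoe and 0.32 for Abca1. At an unadjusted p under 0.05 there were 3 genes, and 19.5% of all genes. The T-PNU and trastuzumab samples did not overlap for 1 gene, Mylip (exact permutation p = 0.00216), as was so for 1.31% of all genes. With the 20 samples 4 genes were higher, Abcg1 (0.89, adjusted p = 0.00402), Mylip (0.61, adjusted p = 0.0163), Abca1 (0.40, adjusted p = 0.0263) and Apoe (0.46, adjusted p = 0.0318), beside 14.6% of all genes.

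No gene of the 8 passed the threshold by limma in the comparisons among untreated, trastuzumab and T-DM1 mice. T-DM1 against untreated mice gave 0 of 8 by limma (6.27% of all genes) and 2 at an unadjusted p under 0.05 (23.4% of all genes), and Abca1 differed by -0.33 (adjusted p = 0.169). Trastuzumab against untreated mice gave 0 of 8 (0.259% of all genes) and 0 at an unadjusted p under 0.05 (8.77%), with the largest difference that of Apoe (0.41, adjusted p = 0.648). T-DM1 against trastuzumab gave 0 of 8 (0.647%) and 2 at an unadjusted p under 0.05 (15.3%), with Cyp27a1 at -0.45 (adjusted p = 0.224) and Abca1 at -0.40 (adjusted p = 0.181). For Cyp27a1, 5 of the 6 T-DM1 samples were below every trastuzumab sample (exact permutation p = 0.00649, and 0.0390 adjusted over the 48 tests). For Abca1, 4 of the 6 were (exact permutation p = 0.0130, and 0.0693 adjusted). Comparisons that share a group share its samples. The ones that share T-DM1 thus hold the same low Abca1 and Cyp27a1 values.

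Of 40 other genes of cholesterol handling on 6 lists, 39 were measured (Apoc2 had no value). Against T-DM1, 9 were higher and 9 lower with T-PNU, beside 12.4% of all genes higher and 17.4% lower, so the lower count is near that of all genes. There were 12 higher and 11 lower with the 20 samples, beside 19.8% and 20.1%. Among 11 other LXR targets, 5 were higher, led by Cd5l, a protein macrophages secrete (0.99, SE 0.33, adjusted p = 0.0282), and Mertk, a receptor for dying cells (0.93, SE 0.21, adjusted p = 0.00411). Lpl (0.80), Smpdl3a (0.78) and Apoc1 (0.57) were the other 3. Cd5l and Apoc1 were low genes, with means of 6.02 and 4.02. Lower were Scd2, a fatty acid desaturase (-0.85, SE 0.19, adjusted p = 0.00362), and Srebf1. The 5 and the 2 were the counts with the 20 samples too. Mertk ran from 9.51 to 10.15 with T-DM1 and from 10.47 to 10.98 with T-PNU, without overlap.

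Among 9 genes of intracellular cholesterol handling, 3 were higher and 2 lower with T-PNU than with T-DM1. Lipa, which frees cholesterol from esters in lysosomes (0.63, adjusted p = 0.00574 by limma), and Nceh1, which hydrolyses them in the cytosol (0.49, adjusted p = 0.00945), were higher, as was Osbp (0.24). Stard4, a sterol carrier, and Tspo were lower with T-PNU than with T-DM1 (-0.44 and -0.43). The 20 samples gave 5 higher and 2 lower. Of 5 genes listed under efflux acceptors and HDL exchange, 3 were lower and 0 higher. The lower ones were Abcg4 at -0.76, Lcat at -0.67 and the HDL receptor gene Scarb1 at -0.35. Abcg4 encodes a transporter, like the pump genes Abca1 and Abcg1, and not an acceptor. Abcg4 and Lcat were low genes, with means of 5.09 and 5.98. Of 4 lipoprotein receptors, 2 were lower, among them Lrp8 at -0.32, and 3 were lower with the 20 samples.

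Few receptor partners and no oxysterol enzymes passed. Of 6 partners and cofactors, only the coactivator gene Ncoa1 was higher with T-PNU than with T-DM1 (0.41, adjusted p = 0.00848 by limma), and of the 4 oxysterol enzymes none passed (Sult2b1 differed most, by 0.33, adjusted p = 0.166). Of the partners 2 were higher and 1 lower with the 20 samples, and again no oxysterol enzyme passed. All 8 genes of a sterol synthesis list were lower with T-PNU than with T-DM1 (Sqle the most, at -1.36), beside 17.4% of all genes, and all 8 were lower with the 20 samples. Their summed level ran from 14.09 to 14.34 with T-PNU and from 14.76 to 15.17 with T-DM1, without overlap.

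**Figure D3:**
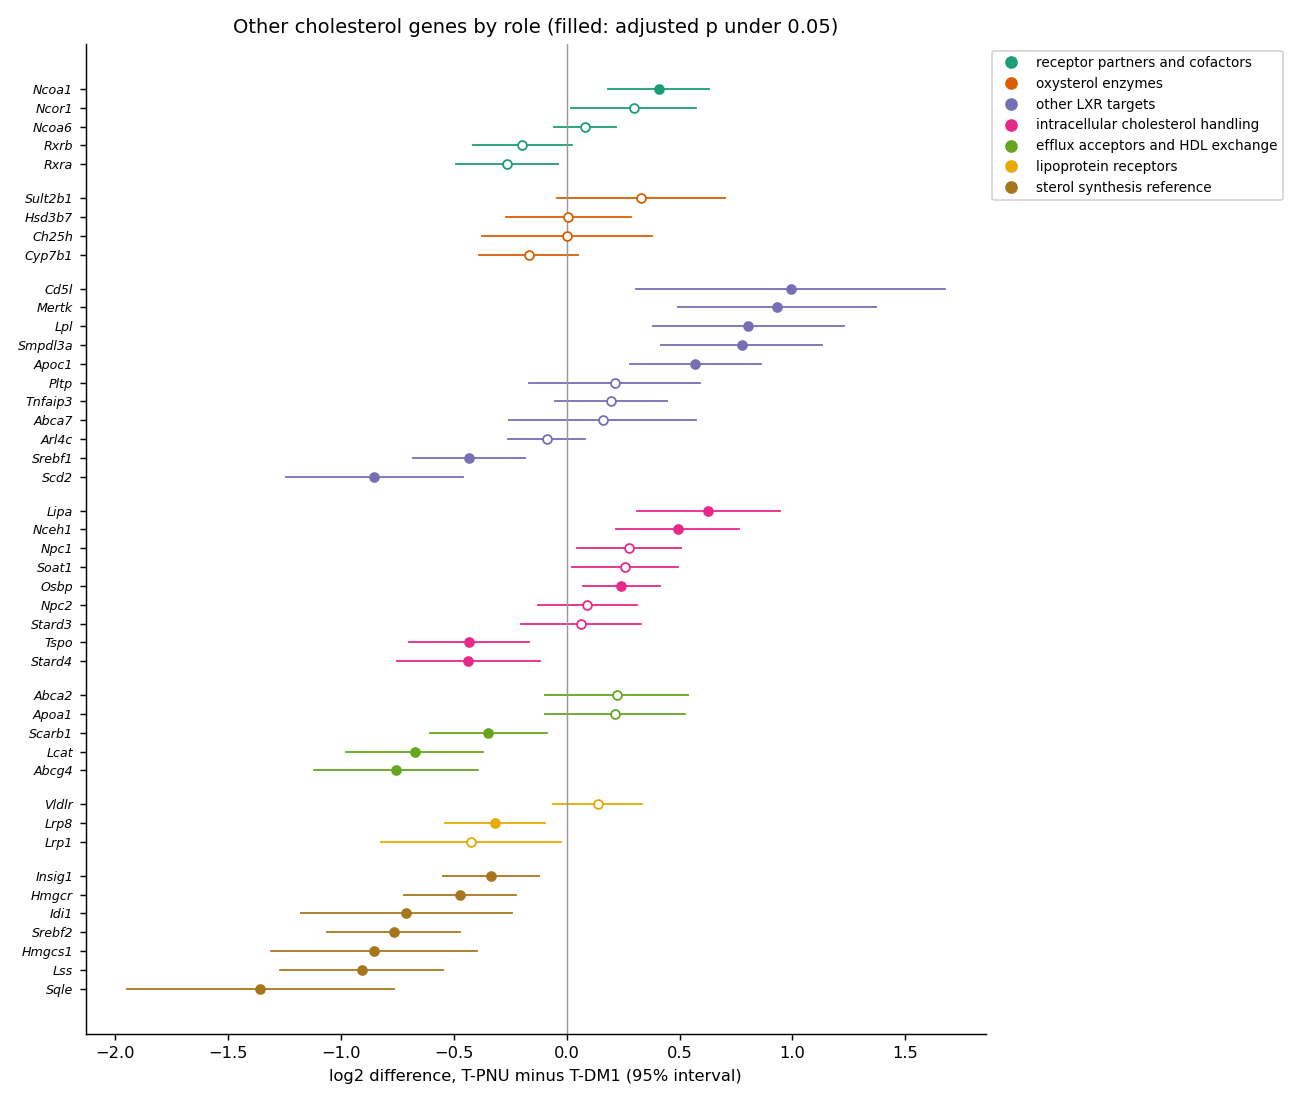
Log2 difference of T-PNU from T-DM1 (horizontal axis) for the other cholesterol genes and the sterol synthesis genes reported here, grouped by list, with 95% intervals from limma and filled points where the adjusted p is under 0.05. Points of other LXR targets and of intracellular handling lie on both sides of 0, and those of sterol synthesis lie below it.

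Against the other groups few of the 39 genes passed. Against untreated mice 1 was higher with T-PNU, the apolipoprotein gene Apoc1 (0.75, SE 0.14, adjusted p = 0.0463 by limma). Apoc1 was a low gene, from 3.56 to 4.42 in untreated mice and from 4.14 to 4.80 with T-PNU, and C1 was again the highest untreated sample. No gene of the other lists passed, with Stard4 at -0.53, Abcg4 at -0.52 and Sult2b1 at 0.26 (adjusted p from 0.0725 to 0.354), nor did Sqle (-0.997, adjusted p = 0.0723). With the 20 samples 19 of the 39 passed against untreated mice (12 higher, 7 lower), beside 31.1% of all genes, and all 8 sterol synthesis genes were lower.

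Against trastuzumab none of the 39 passed by limma with 24 samples, and with the 20 samples 5 were higher and 8 lower, beside 28% of all genes. Among the largest differences by list were Apoc1 at 0.61, Ch25h at -0.48, Abcg4 at -0.45, Ncoa1 at 0.37 and Stard4 at -0.34 (adjusted p from 0.125 to 0.234). With T-DM1 against untreated mice 3 of the 39 were higher, beside 6.27% of all genes called, among them Srebf1 (0.52, adjusted p = 0.0149) and the oxysterol hydroxylase gene Cyp7b1 (0.42, adjusted p = 0.0231). Cyp7b1 was a low gene, with a mean of 3.89 over the 24 samples. None of the 39 passed in that comparison without B1 and C1, nor with the 20 samples, where 2.01% of all genes did and Srebf1 differed by 0.43 (adjusted p = 0.0910). No gene of the 39 passed with trastuzumab against untreated mice, or with T-DM1 against trastuzumab, where Cd5l differed by -0.81 (adjusted p = 0.233). These counts were 0 and 1 with the 20 samples, the second beside 0.812% of all genes.

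Markers of other cells also differed in the comparison in which the 4 genes were called, to be read beside the 12.4% of all genes that were higher with T-PNU than with T-DM1 and the 17.4% that were lower. Of 10 macrophage markers, 5 were higher and 0 lower, and their summed level ran from 17.14 to 17.71 with T-PNU and from 16.58 to 17.13 with T-DM1. None of the 10 was at a low level, Trem2 being lowest (mean 11.80) and C1qa highest (14.78). Ptprc was higher by 0.76. Of 7 fibroblast markers, 6 were lower, with summed levels of 14.45 to 16.01 against 16.53 to 17.09. All 5 NK cell markers and 4 of 5 endothelial markers were higher. The other lists held few calls, with 2 of 7 neutrophil, 2 of 7 dendritic cell and 1 of 3 measured adipocyte markers higher, 2 of 6 monocyte markers lower, 1 of 5 epithelial markers in each direction, and none of 9 T cell and 7 B cell markers. With the 20 samples 9 macrophage, 4 neutrophil, 3 dendritic cell and 2 T cell markers were higher, 1 neutrophil marker was lower, and the other lists gave the same counts, beside 19.8% of all genes higher and 20.1% lower. The part of these markers in the differences of the 8 genes was not tested.

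Against trastuzumab the macrophage levels overlapped, from 17.26 to 17.56 with trastuzumab and from 17.14 to 17.71 with T-PNU, and 0 of 10 markers passed by limma (1 with the 20 samples). In untreated mice their level ran from 16.29 in B1 to 18.10 in C1, the same samples that bounded Nr1h3, Abca1, Apoe and Cyp27a1. T cell levels ran widely in every group, from 11.73 to 15.20 in untreated mice, 11.89 to 14.73 with trastuzumab, 11.82 to 14.51 with T-DM1 and 12.79 to 15.51 with T-PNU.

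**Figure D4:**
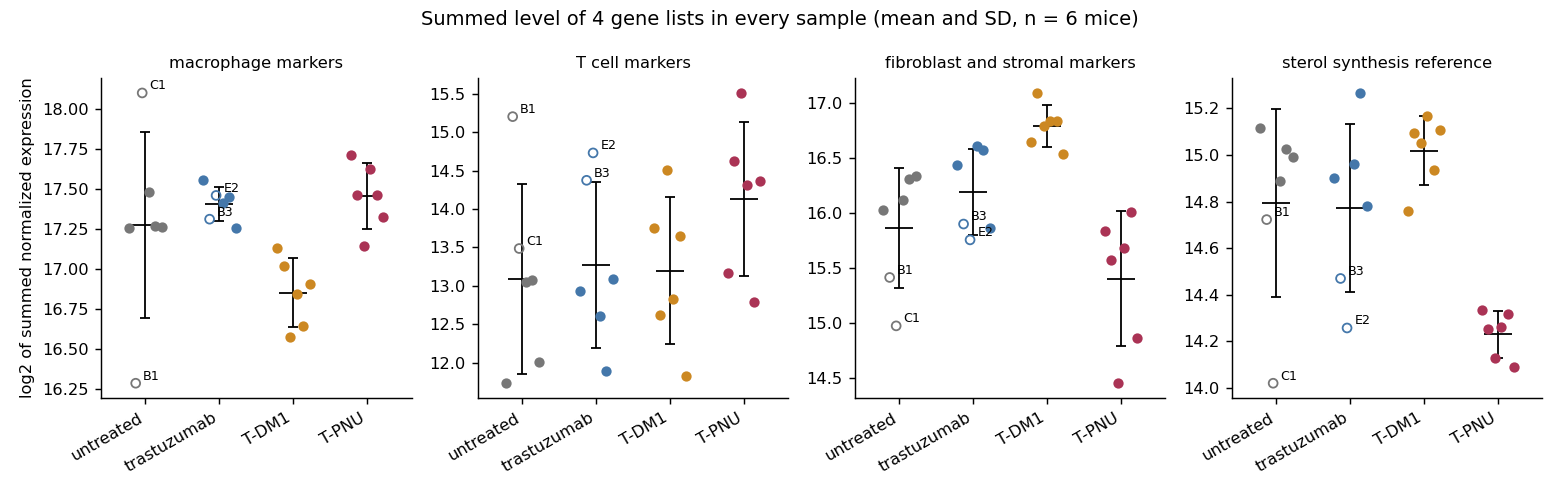
Log2 of the summed normalized expression (vertical axis) of 4 gene lists in every sample by group, with points for mice, open where the study's heatmaps leave the sample out, and bars for the mean and SD of 6 mice. Macrophage levels with T-PNU lie above those with T-DM1, fibroblast and sterol synthesis levels lie below them, and T cell levels overlap between all groups.

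After group means were subtracted, the 8 genes varied between mice of a group to different degrees together. Over the 24 samples Pearson r was 0.87 (Spearman rho 0.73) for Apoe with Cyp27a1, 0.86 (0.83) for Nr1h3 with Apoe and 0.86 (0.83) for Nr1h3 with Cyp27a1. The same values were 0.60, 0.65 and 0.66 with the 20 samples. Abca1 had an r of 0.80 with Cyp27a1, 0.69 with Nr1h3 and 0.64 with Apoe (rho 0.70, 0.58 and 0.47), which were 0.53, 0.34 and 0.08 with the 20 samples, so its relation to Nr1h3 and Apoe rested on the samples left out. Among them were B1 and C1, the 2 samples farthest from the median, without which alone Abca1 had an r of 0.40 with Nr1h3 and 0.22 with Apoe.

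Abcg1 and Mylip had an r of 0.84 (rho 0.73), and 0.73 with the 20 samples. Lpcat3 ran against both (r = -0.82 with Abcg1 and -0.79 with Mylip, rho = -0.83 and -0.80), at -0.82 and -0.69 with the 20 samples. Abcg1 also ran with Apoe (0.58, and 0.52 with the 20 samples), Nr1h3 (0.49 and 0.52) and Nr1h2 (0.57 and 0.53), so the genes did not part into separate sets. The efflux pumps Abca1 and Abcg1 had an r of 0.49 with each other, and 0.29 with the 20 samples. Such correlations are descriptions, since all genes of a sample share its library and its mixture of cells.

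Most of the genes followed the levels of several cell type lists at once, out of 11 lists compared, the sterol synthesis list included. The NK cell level ran with Abcg1 (r = 0.87), Mylip (0.74), Cyp27a1 (0.69), Apoe (0.65), Nr1h3 (0.64) and Abca1 (0.51), which with the 20 samples were 0.76, 0.61, 0.67, 0.54, 0.66 and 0.24. As a sum of linear values, the NK cell level weighs mostly on Gzma (mean 9.78) and Eomes (8.19), with Ncr1 next at 6.93. The endothelial level ran with the same 6 genes, from 0.57 for Apoe to 0.80 for Abcg1, and from 0.33 for Mylip to 0.75 for Cyp27a1 with the 20 samples. The macrophage level ran with Nr1h3 and Apoe (r = 0.79 each), Cyp27a1 (0.76) and Abca1 (0.67), falling to 0.53, 0.51, 0.31 and 0.30 with the 20 samples, and had an r of 0.13 with Abcg1.

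The neutrophil level ran with Abca1 (r = 0.80, and 0.79 with the 20 samples) and with Cyp27a1 (0.73 and 0.57). The T cell level ran with Nr1h2 (r = 0.77), Abcg1 (0.73) and Mylip (0.68), which with the 20 samples were 0.77, 0.72 and 0.56, and against Lpcat3 (-0.89 and -0.87). Dendritic and B cell levels had like relations to these 4 genes, and the monocyte level ran with Lpcat3 (0.81 and 0.73) and against Abcg1 (-0.76 and -0.58). The monocyte level, as a sum of linear values, weighs mostly on Fn1 (mean 16.14, next Plac8 at 13.13). Likewise the dendritic cell level weighs mostly on Ccr7 (12.58, next Flt3 at 7.92). Relations to these levels need not hold for the other markers of the lists. The strongest relation of Abcg1 to any list was inverse, to sterol synthesis (r = -0.91, rho = -0.83), at -0.76 with the 20 samples, about the size of its relation to the NK cell level. Lpcat3 ran with sterol synthesis (r = 0.72, rho = 0.85, and r = 0.82 with the 20 samples).

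**Figure D5:**
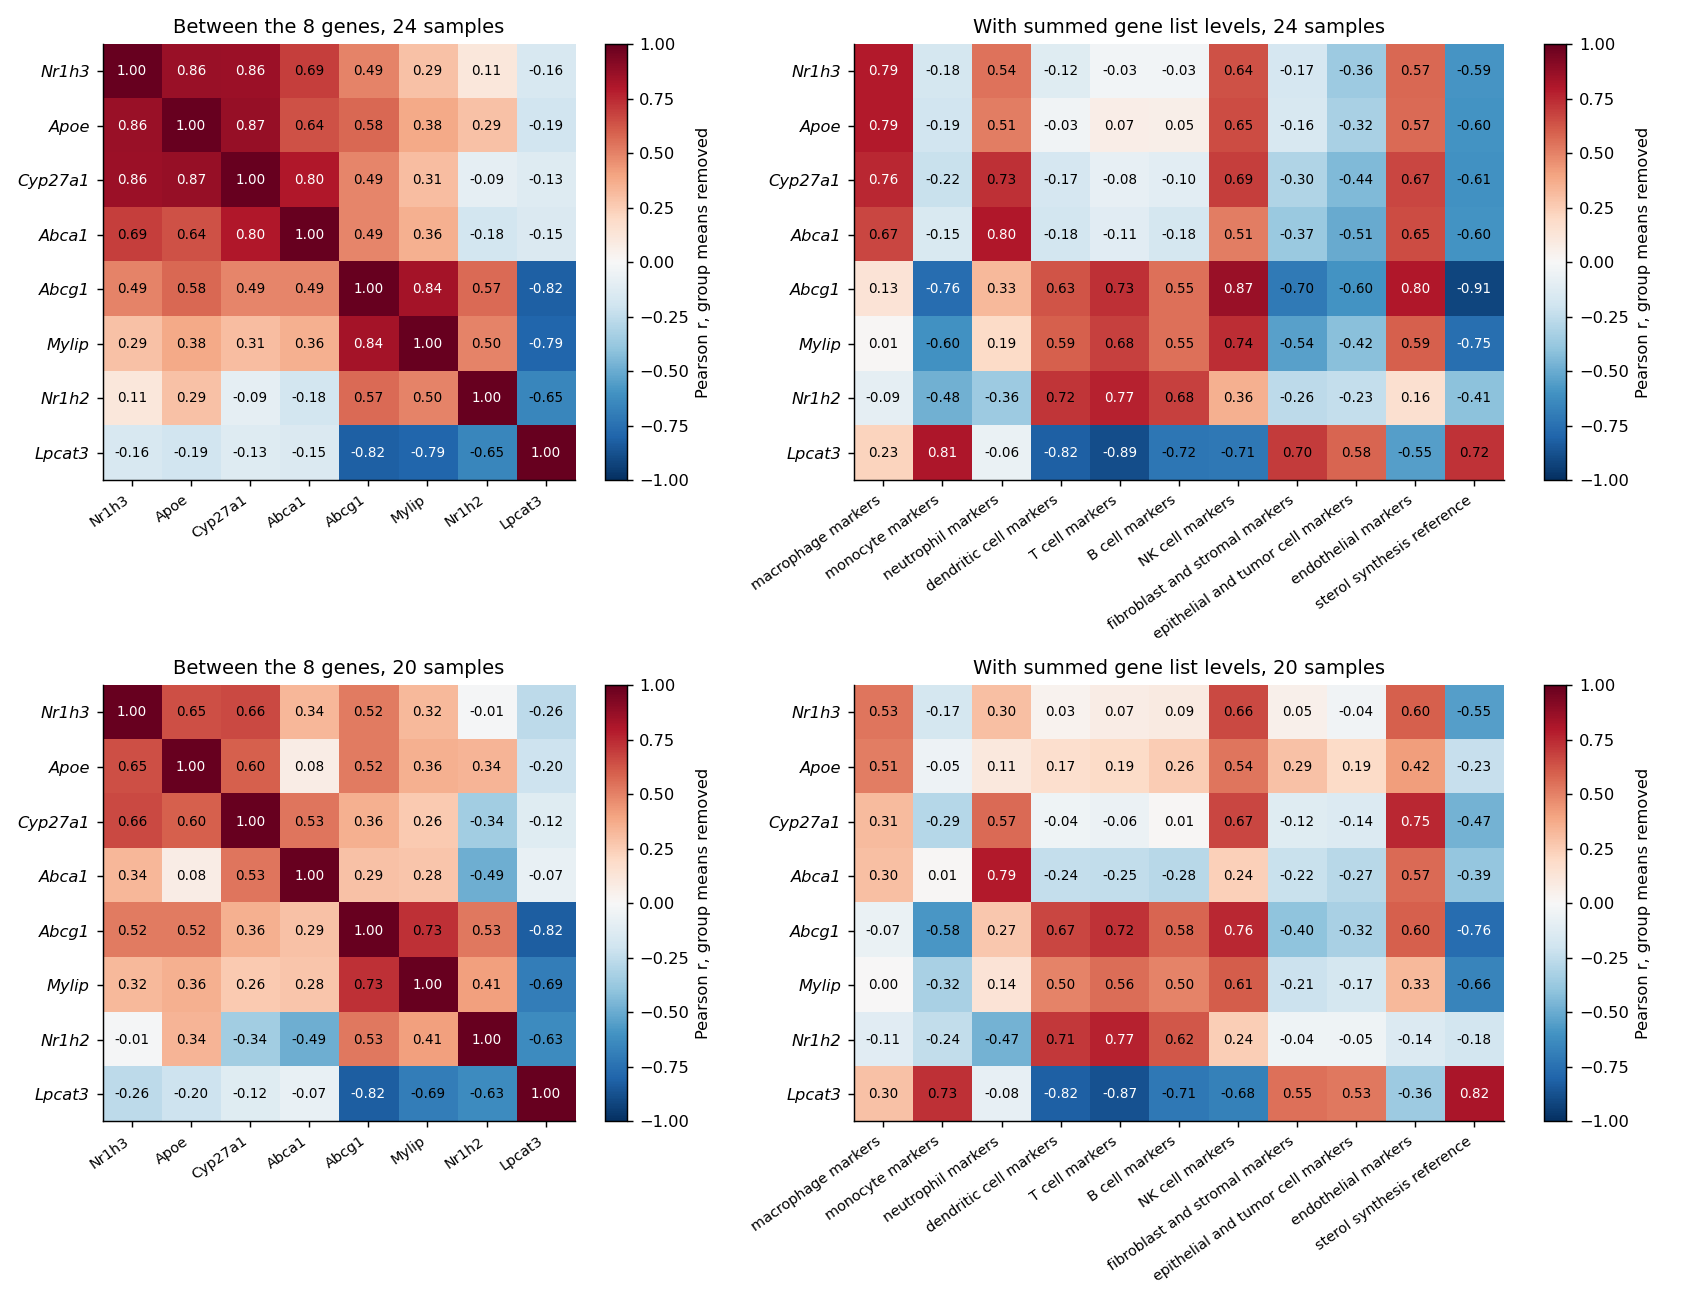
Pearson r after subtracting group means, between the 8 genes (left) and between each gene and the summed level of 11 gene lists (right), over 24 samples (top) and over the 20 of the heatmaps (bottom), from blue (-1) to red (1). Nr1h3, Apoe, Cyp27a1 and Abca1 form a block with 24 samples, from which Abca1 fades with 20, and Lpcat3 is inverse to Abcg1, Mylip and Nr1h2 in both.

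By the same measure over 24 samples, the genes most like each of the 8 had correlations of 0.90 or more. Nearest to Nr1h3 were Cd40 (r = 0.94), Slc11a1 (0.93) and Tmem51 (0.93), and nearest to Apoe were Tmem86a (0.95), Unc93b1 (0.95) and Tmem51 (0.94). Cyp27a1 was nearest to Gng2 (0.96), Cd300a (0.94) and Frmd4b (0.94), and Abca1 to Cacna1d (0.91), Pfkfb3 (0.91) and Man2a1 (0.90). Abcg1 was nearest to Slco3a1 (0.95), Irf2 (0.94) and Pnpla7 (0.93), and Mylip to Arl4d (0.95) and Hspa2 (0.94). Nr1h2 was nearest to Mib2, Rabac1 and Lypla2 (0.97 each) and Lpcat3 to Dlst (0.93), Myadm (0.92) and Fam114a2 (0.92). These were the highest of all genes with a symbol, so high values were to be found in any case, and they were not computed for the 20 samples.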

How the data were processed

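RNA of CD45+ bead-enriched tumor cells was sequenced as stranded mRNA libraries. Per the labels and the study's methods, the authors aligned reads with STAR 2.4.2a (build mm10), counted them on the reverse strand with featureCounts (Subread 1.5.0), removed genes with few counts on average and named genes with org.Mm.eg.db. The deposited values are log2 expression normalized by the authors. The transformation is not given in the sources used here, and if it shrinks values, differences are understated.

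Here, a linear model with a trended prior was fitted by limma 3.58.1 (run in R 4.3.3) to all 24 samples and 4 groups, adjusted by Benjamini-Hochberg over 16996 genes. Exact permutation tests were two-sided. The fit was checked on simulated data for T-PNU minus untreated (16996 genes), where 90% of changes of 1 on the log2 scale were recovered. Of the genes called there, 7.8% were false. With 24 samples the 8 genes differed from untreated mice by 0.79 (Abcg1) or less. The recovery of changes that small is not given by this check. A list level is the log2 of summed linear values. Positions, exon lengths and promoters were of GRCm38, and 99.6% of gene identifiers were found in its annotation. Python 3.11.15 and matplotlib 3.10.9 drew the figures.

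Members and lists were chosen with earlier results of these data known. Named from other lists were, per comparison, up to 2 called genes in each direction, or the largest difference where none was called, and for each of the 8 genes the 3 most correlated genes. A few genes chosen this way are left unnamed, while counts cover whole lists. Lpl, Smpdl3a, Apoc1 beside T-DM1, Osbp, Scarb1 and Fasn fell outside this rule and were chosen after their values were seen. Alternatives were the 20 samples of the heatmaps, quantile normalization, genes above the median level, only the groups compared, sample weights, no trend, the study's thresholds, and each mouse left out in turn. Leaving out B1 and C1, or E2 and B3, was chosen after seeing the data.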

Additional observations from a re-analysis of the deposited data

Results flagged for a closer look

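Of 40 groups of 6 values (the 8 genes, Srebf1 and Fasn in 4 groups), 1 held a value set apart from the rest by more than Dixon's limit of 0.625 of the range. Fasn was at 11.34 in untreated sample C1, while the nearest untreated value was 12.29, a gap of 0.717 of the range. About 1 in 20 such groups is picked out by chance.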

How the results depend on the processing

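Against T-DM1, Abca1, Abcg1 and Cyp27a1 kept their direction and their call in all alternatives run at an adjusted p under 0.05, and Apoe in all but 1 of them (without T-PNU D2). Leaving out mice gave 3 to 5 of the 8 genes called there. The study's thresholds (adjusted p under 0.01 and fold above 2) gave 0 of the 8 and 0 of the 39 pathway genes called against T-DM1, as no difference reached a fold of 2. For T-PNU against untreated mice, the 8 genes gave 5 called with the 20 samples, 5 with sample weights, 4 without B1 and C1, 1 without E2 and B3, and 0 to 5 with a mouse left out. The 39 pathway genes gave 19, 18 and 18 with the first 3 of these settings, 0 to 16 with a mouse left out, and 0 after quantile normalization, with genes above the median level, with only the 2 groups and at the study's thresholds. For T-PNU against trastuzumab, the 8 genes gave 4 with the 20 samples, 3 with sample weights 1 without B1 and C1 and 1 without E2 and B3, and the 39 gave 13, 11, 6 and 6, or 0 to 2 with a mouse left out.

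For T-DM1 against untreated mice, the 8 gave 2 with sample weights and 0 to 1 with a mouse left out. The 39 gave 0 with the 20 samples, without B1 and C1 and at the study's thresholds, 11 with sample weights and 2 to 6 with a mouse left out. For trastuzumab against untreated mice, the 39 gave 1 with sample weights and 0 to 1 with a mouse left out. For T-DM1 against trastuzumab, the 8 gave 1 with sample weights and 2 without B1 and C1. The 39 gave 1 with the 20 samples, 1 with only the 2 groups, 5 with sample weights, 3 without B1 and C1 and 0 to 2 with a mouse left out. The cause of these moves was not tested.

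Differences that changed sign were small and uncalled. In the order the 20 samples, sample weights, without B1 and C1, T-PNU minus untreated was -0.068, -0.017 and -0.068 for Lpcat3, and T-DM1 minus untreated was 0.25, 0.15 and 0.25 for Abcg1. In the order the 20 samples, sample weights, without E2 and B3, T-PNU minus trastuzumab was 0.12, 0.081 and 0.12 for Nr1h2, and T-DM1 minus trastuzumab was 0.023, 0.015 and 0.023 for Nr1h3. Abcg1 in T-DM1 minus trastuzumab was 0.022 with the 20 samples and without E2 and B3. In trastuzumab minus untreated, Abca1 was -0.0064 and Abcg1 -0.10 without E2 and B3. With a mouse left out, the ranges were -0.028 to 0.042 (Lpcat3, T-PNU minus untreated), -0.13 to 0.098 (Nr1h3) and -0.11 to 0.078 (Nr1h2) for T-PNU minus trastuzumab, -0.21 to 0.12 (Abcg1) and -0.12 to 0.27 (Apoe) for T-DM1 minus untreated, -0.017 to 0.20 (Abca1), -0.0097 to 0.32 (Abcg1) and -0.030 to 0.29 (Cyp27a1) for trastuzumab minus untreated, and -0.22 to 0.011 (Nr1h3) and -0.077 to 0.096 (Mylip) for T-DM1 minus trastuzumab.

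No paired analysis was possible because the groups share no replicate numbers. Depth is unknown, so no counting error is given, and differences under the spread between 6 mice were not detectable.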
